A study of Mus musculus with 10 samples.

Results

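The genes described here encode the machinery that brings a mast cell granule to the plasma membrane and fuses it there. They were chosen as a fixed list of 37 symbols (SNAREs, Munc18 and Munc13 proteins, Rab GTPases with their effectors, synaptotagmins and partners), and all 37 are among the 22815 symbols of the count table. Of these, 36 had a count in at least 1 of the 10 libraries and 31 passed the filter on low counts and were tested. Flow sorting of lower airway tissue from wild-type C57BL/6 mice, 5 to 7 weeks old, gave the mast cells as a B7hi and a B7low population. The series title calls the cells inducible and constitutive, and in published use B7 is integrin β7, with inducible cells high for it. All mice received intranasal challenges of 20 µL, either saline (PBS) or the same volume with 3 µg of house dust mite (HDM) extract, which for HDM was given 2 times a week for 3 weeks. The groups are B7hi saline (n = 2), B7low saline (n = 2), B7hi HDM (n = 3) and B7low HDM (n = 3). The labels do not say whether libraries came from separate or pooled animals, so the spread that p-values rest on may be technical.

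Mast cells store proteases, histamine and serglycin proteoglycans in secretory granules, which are lysosome-related organelles. On activation, granules move along microtubules and through cortical actin, are tethered by Rab27 and its effectors, and fuse when a vesicle SNARE zippers with target SNAREs at the plasma membrane. Munc18 and Munc13 proteins prepare the SNAREs for fusion, synaptotagmins and complexins couple it to calcium, and NSF with α-SNAP takes spent SNARE complexes apart. Rab27b is the main Rab27 form of mast cells in textbook accounts, and loss of Rab27a, Munc13-4 (Unc13d), syntaxin 11, Munc18-2 (Stxbp2) or Lyst impairs cytotoxic granule release in inherited disease.

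Total counts ran from 525983 (B7hi HDM 2) to 1725818 (B7hi saline 2). Levels are in CPM (counts scaled to a common library total). By the raw total, a count of 0 allows up to 5.70 CPM at the lowest and 1.74 CPM at the highest depth (3 counts, counting error only). The levels given below use the TMM-scaled total instead, on which 3 counts in B7hi HDM 2 are 5.87 CPM. Mast cell markers were abundant in every library, with Kit at 2693 CPM or more and Ms4a2, the β chain of the IgE receptor, at 640 CPM or more. The 9 mast cell markers, granule proteases among them, summed to 16905 to 33882 CPM in B7hi and 51574 to 96522 CPM in B7low. B7low saline 2 and B7hi HDM 2 stood apart in Kcnq1ot1, a nuclear noncoding RNA, with 6956 and 12133 CPM, while the rest had 806 to 2794 CPM. Where leaving both out ends a call given below, that is stated beside it. Of the marker lists of other cell types, that of B cells moved with population after HDM, with 3 of 5 tested genes lower in B7hi and summed levels of 5.63 to 19.9 CPM in B7hi HDM against 79.6 to 595 CPM in B7low HDM. T cell markers summed to 3.78 and 175 CPM in the B7hi saline libraries, with 0 of 5 tested genes called. Of 5 basophil markers B7hi had 2 at higher and 2 at lower levels over both challenges, and 0 higher and 2 lower with saline and with HDM. The basophil list summed to 1629 to 2844 CPM in B7hi and 1168 to 1874 CPM in B7low. Of 3 tested epithelial markers 1 was higher in B7hi with saline and 1 over both challenges. The epithelial list summed to 187 and 137 CPM in B7hi saline and to 10.5 and 26.8 CPM in B7low saline. With HDM its sums were 73.8 to 138 CPM in B7hi and 57.9 to 129 CPM in B7low. Of the eosinophil list the granule genes Epx, Prg2 and Ear6 had no count in any library. The part of these cells in the results was not tested.

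Of the members that differed between the populations, 5 of 7 were Rab27 paralogs or listed Rab27 effectors. Both paralogs and 5 listed effectors were among the 31 tested members, and this grouping was read from the called genes. Unc13d, also a Rab27 effector, was listed with the Munc13 proteins and was not called. Averaged over both challenges with equal weight, 7 of the 31 tested members differed between B7hi and B7low, 2 higher and 5 lower in B7hi (edgeR, Benjamini-Hochberg adjusted p under 0.05), against 5.8% and 6.08% of all genes. That is 22.6% of the tested members, against 11.9% of all 10533 genes tested in either direction, and no test of this share was made. Higher in B7hi were Rab27a and its effector Sytl1. Lower were Rab27b, the effectors Sytl3 and Mlph, the granule size regulator Lyst and the complexin Cplx2. The median log2 fold change of the 31 members was −0.21, against 0.03 for all genes tested. In bulk RNA, fewer cells of a type and less RNA per cell cannot be told apart.

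**Figure D1:**
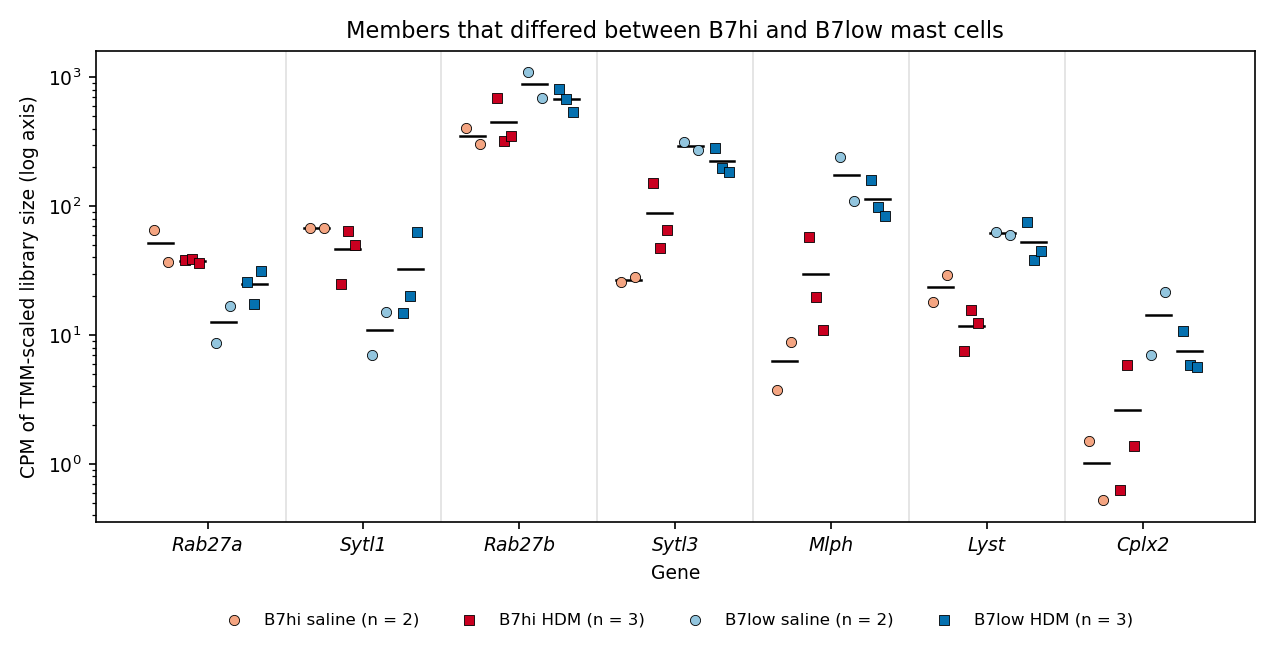
CPM of the TMM-scaled library size (log axis) in each library for the 7 members called between B7hi and B7low over both challenges, with 1 point per library and a bar at the group mean. Rab27a and Sytl1 stand higher in most B7hi libraries and Rab27b, Sytl3, Mlph, Lyst and Cplx2 in most B7low libraries, and the square of B7hi HDM 1 is the topmost B7hi point for Rab27b, Sytl3 and Mlph.

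The promoters of 4 called genes are shown, of which Rab27a and Sytl1 were higher and Mlph and Sytl3 lower in B7hi. Each is the RefSeq window before the annotated start (GRCm38.p6), 5′ to 3′ on the gene's strand, without bases that GENCODE M21 places in an exon. Capitals mark the searched motifs, which were searched on both strands: the E-boxes CACGTG and CATGTG, bound by Mitf and related factors, and AGATAA, known as the motif of GATA factors. None of these motifs overlaps another in the windows shown.
Rab27a, first start, chr9:73044560-73044809, plus strand: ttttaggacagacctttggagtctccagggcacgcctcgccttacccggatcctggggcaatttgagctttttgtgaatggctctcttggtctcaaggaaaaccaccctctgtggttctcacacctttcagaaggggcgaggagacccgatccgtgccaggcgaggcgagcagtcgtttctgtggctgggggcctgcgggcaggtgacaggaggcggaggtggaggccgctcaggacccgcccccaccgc
Rab27a, second start, chr9:73063898-73064147, plus strand: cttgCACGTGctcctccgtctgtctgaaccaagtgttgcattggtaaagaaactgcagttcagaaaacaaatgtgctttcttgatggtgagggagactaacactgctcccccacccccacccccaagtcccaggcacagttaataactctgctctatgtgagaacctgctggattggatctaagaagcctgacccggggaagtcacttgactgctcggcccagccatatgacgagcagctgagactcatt
Sytl1, chr4:133263114-133263337, minus strand: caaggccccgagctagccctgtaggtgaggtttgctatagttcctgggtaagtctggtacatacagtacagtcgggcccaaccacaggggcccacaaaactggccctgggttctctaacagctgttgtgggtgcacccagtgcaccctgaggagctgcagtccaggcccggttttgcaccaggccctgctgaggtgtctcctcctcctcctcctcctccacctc
Mlph, chr1:90914850-90915084, plus strand: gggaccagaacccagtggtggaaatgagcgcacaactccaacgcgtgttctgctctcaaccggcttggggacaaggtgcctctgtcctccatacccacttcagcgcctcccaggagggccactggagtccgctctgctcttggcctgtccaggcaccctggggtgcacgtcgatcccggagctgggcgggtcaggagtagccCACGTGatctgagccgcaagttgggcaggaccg
Sytl3, chr17:6658809-6659058, plus strand: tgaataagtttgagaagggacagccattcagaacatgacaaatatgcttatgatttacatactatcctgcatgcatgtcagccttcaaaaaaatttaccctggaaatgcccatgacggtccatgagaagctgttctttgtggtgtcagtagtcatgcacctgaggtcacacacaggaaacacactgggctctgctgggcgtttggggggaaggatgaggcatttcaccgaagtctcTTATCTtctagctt
The match in Mlph begins 48 bases before the start, that of the second Rab27a start 246 bases before it, and that of Sytl3, on the opposite strand, 14 bases before it. The first Rab27a window and the Sytl1 window hold none of these letters. Nor do the windows of Lyst and Cplx2, which were also called lower in B7hi and are not shown. RefSeq held windows for 30 of the 37 members, 35 windows in all. CACGTG was in 7 of these 35 windows of 250 bases (20.0%), against 6.02% of all 32851 windows, namely at Vamp4, Stx6, Stxbp2, Rab27a, Mlph, Napa and Nsf. Of these, only Rab27a and Mlph were called between populations, and in opposite directions. CATGTG was in 0 of the 35 and 12.3% of all windows, and AGATAA in 2 (Sytl3 and Scamp2, 5.71%) and 9.99%. A match is a description of the letters and not a bound site.

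Rab27b, the more abundant Rab27 paralog, was lower in B7hi. It stood at 402 and 303 CPM in B7hi saline and at 684, 321 and 348 CPM in B7hi HDM, against 1095 and 689 CPM in B7low saline and 809, 678 and 539 CPM in B7low HDM. The saline groups did not overlap, while B7hi HDM 1 lay within the range of B7low HDM. Here and below, the share of all genes for which groups of 2 or 3 libraries lie apart was not counted. The log2 fold change, B7hi over B7low, was −0.96 ± 0.24 over both challenges (SE, edgeR adjusted p = 0.014), −1.34 ± 0.37 with saline (adjusted p = 0.040) and −0.58 ± 0.30 with HDM (adjusted p = 0.43). Over both challenges the call was lost without B7hi saline 2 or B7low saline 1, at an adjusted p of up to 0.079. With saline it was lost without B7hi saline 1, B7hi saline 2 or B7low saline 1, at up to 0.24, and with library size alone or only the saline groups in the fit.

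Rab27a, the paralog best known from cytotoxic granules and melanosomes (chromosome 9, 73044854 to 73097629), went the other way. Its levels were 65.7 and 37.1 CPM in B7hi saline and 38.1, 39.1 and 36.3 CPM in B7hi HDM. In B7low they were 8.74 and 16.7 CPM with saline and 25.8, 17.6 and 31.6 CPM with HDM. All 5 B7hi libraries lay above all 5 B7low libraries, with no overlap. Such separation was found for 7 of the 31 members (9.4% of all genes), 2 of them higher in B7hi, Rab27a and Vamp8 (4.46%), and 5 lower, Sytl2, Sytl3, Mlph, Lyst and Stxbp3a (4.94%). The log2 fold change was 1.29 ± 0.32 over both challenges (edgeR adjusted p = 0.014), 1.99 ± 0.52 with saline (adjusted p = 0.030) and 0.60 ± 0.38 with HDM (adjusted p = 0.55). Without B7hi saline 1 or B7low saline 1 the calls with saline and over both challenges were lost, with adjusted p of up to 0.26 and 0.11, as they were with limma-voom. Leaving out B7low saline 2 and B7hi HDM 2 together, or fitting only the saline groups, also ended the saline call.

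Per kilobase of exon, Rab27b exceeded Rab27a in every library, by a ratio of 2.22 and 2.97 in B7hi saline and 15.0 and 45.5 in B7low saline. With HDM the ratio was 2.98 to 6.51 in B7hi and 6.20 to 14.0 in B7low. The saline ranges lay apart, and those with HDM met through B7hi HDM 1 at 6.51 and B7low HDM 3 at 6.20.

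The Rab27 effectors that were called split in the same 2 directions. Sytl3, or Slp3 (chromosome 17, 6659093 to 6738044), a synaptotagmin-like protein known to link Rab27 granules to kinesin, stood at 25.7 and 28.2 CPM in B7hi saline and at 313 and 273 CPM in B7low saline. With HDM it was at 151, 47.0 and 65.8 CPM in B7hi and at 285, 197 and 185 CPM in B7low. No B7hi library reached the lowest B7low library. The log2 fold change was −3.43 ± 0.46 with saline (edgeR adjusted p = 4.0e-04), −1.29 ± 0.34 with HDM (adjusted p = 0.058) and −2.36 ± 0.28 over both (adjusted p = 5.5e-05). With HDM it passed with DESeq2 (adjusted p = 0.010), limma-voom (0.014) and without B7hi HDM 1 (0.0017). Sytl3 overlaps Ezr on the opposite strand, and the use of strand in the counting is not given in the sources used here. Ezr, the actin linker ezrin, had a log2 fold change of 1.11 with saline and −0.16 with HDM (adjusted p = 0.093 and 0.88).

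Mlph, or melanophilin (chromosome 1, 90915085 to 90951142), couples Rab27 to the actin motor myosin Va. It stood at 3.78 and 8.88 CPM in B7hi saline and at 241 and 109 CPM in B7low saline. With HDM its levels were 58.1, 19.6 and 11.0 CPM in B7hi and 160, 98.2 and 83.4 CPM in B7low. The populations did not overlap under either challenge. The log2 fold change was −4.71 ± 0.78 with saline (edgeR adjusted p = 0.0042), −1.86 ± 0.55 with HDM (adjusted p = 0.11) and −3.28 ± 0.48 over both (adjusted p = 9.0e-04). With HDM it passed with DESeq2 (adjusted p = 0.0097), limma-voom (0.037) and without B7hi HDM 1 (0.0042), and the saline call was lost without B7hi saline 1 (0.063). The saline log2 fold change was −3.98 without B7low saline 1 and −5.50 without B7hi saline 2.

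Sytl1, or Slp1 (chromosome 4, 133253090 to 133263113), another Rab27 effector, had the opposite pattern with saline. B7hi saline held 68.0 and 67.3 CPM and B7low saline 6.99 and 15.0 CPM. With HDM there were 25.002, 64.6 and 49.999 CPM in B7hi and 14.9, 20.2 and 63.2 CPM in B7low. The HDM groups overlapped through B7hi HDM 1, which was low, and B7low HDM 3, which was high. The log2 fold change was 2.60 ± 0.71 with saline (edgeR adjusted p = 0.040), 0.42 ± 0.49 with HDM (adjusted p = 0.79) and 1.51 ± 0.43 over both (adjusted p = 0.034). Over both challenges the call was lost without any library but B7hi HDM 1 or B7low HDM 3, at an adjusted p of up to 0.15. With saline it was lost without each saline library or B7hi HDM 3, at up to 0.18, with a log2 fold change of 2.202 without B7low saline 1 and 3.28 without B7low saline 2. Both calls were also lost with limma-voom, and with B7low saline 2 and B7hi HDM 2 left out together.

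Sytl4, Sytl2 and Myrip were scarce. Sytl4, or granuphilin, which docks granules, was at 18.9 and 11.5 CPM in B7hi saline and 6.25, 33.3 and 8.22 CPM in B7hi HDM, and at 0 to 13.4 CPM in the 5 B7low libraries. Its log2 fold change over both challenges was 1.58 (95% interval −0.07 to 3.22, edgeR adjusted p = 0.22). Sytl2, or Slp2, lay at 3.91 to 10.6 CPM in B7hi and 12.2 to 21.7 CPM in B7low, which did not overlap, with −1.13 (−2.08 to −0.18, adjusted p = 0.12). Myrip, which joins Rab27 to myosin VIIa, had 8 counts in all and was not tested. Summed per kilobase, Sytl1 was 72.6% of the 6 listed effectors (Sytl1 to Sytl4, Mlph and Myrip) in each B7hi saline library. It was 2.51% and 7.09% in B7low saline. Unc13d, also a Rab27 effector, was not part of this sum. Sytl3 and Mlph held 55.9% and 40.7% of the sum in B7low saline 1 and 63.9% and 24.1% in B7low saline 2. With HDM, Sytl1 was 18.9%, 54.8% and 53.7% in B7hi and 6.37%, 11.9% and 31.7% in B7low.

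**Figure D2:**
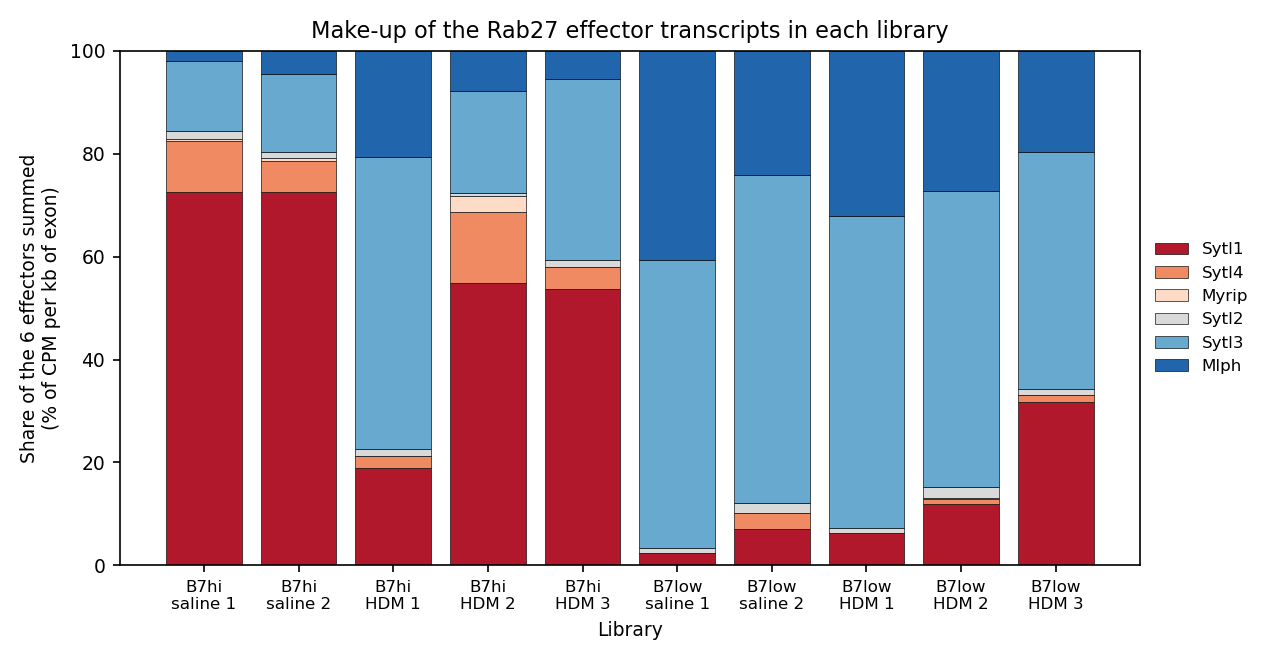
Share of each of 6 Rab27 effectors (Sytl1 to Sytl4, Mlph and Myrip) in their sum, in percent of CPM per kilobase of exon, with 1 bar per library. Unc13d is not part of the sum. Sytl1 takes 72.6% of both B7hi saline bars and 2.51% to 31.7% of the B7low bars, and B7hi HDM 1, at 18.9%, is the B7hi bar with the least Sytl1.

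B7hi HDM 1 stood closest to B7low among the B7hi libraries in Rab27b, Sytl3, Mlph and Sytl1, but not in the other called members. Its Lyst level, 7.500 CPM, was the farthest from B7low of all B7hi libraries, its Cplx2 level, 0.62 CPM, was the next to lowest in B7hi, and its Rab27a level lay between those of B7hi HDM 2 and 3. The library had 3331 CPM of the tryptase Tpsb2, against 996 and 1103 CPM in B7hi HDM 2 and 3, 206 and 559 CPM in B7hi saline, and 8265 to 16086 CPM in B7low. The chymase Cma1 was at 6205 CPM in it, 4282 and 4736 CPM in the other B7hi HDM libraries and 16088 CPM or more in B7low. Whether cells of the B7low kind had a part in these values was not tested.

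Lyst (chromosome 13, 13590397 to 13778803), the large BEACH protein that limits granule size, was the member called with HDM. Its levels were 18.1 and 29.2 CPM in B7hi saline and 7.500, 15.7 and 12.3 CPM in B7hi HDM, against 62.9 and 60.2 CPM in B7low saline and 75.9, 38.4 and 44.9 CPM in B7low HDM. All 5 B7hi libraries lay below all 5 B7low libraries. The log2 fold change was −2.21 ± 0.41 with HDM (edgeR adjusted p = 0.0069), −1.36 ± 0.46 with saline (adjusted p = 0.091) and −1.79 ± 0.31 over both (adjusted p = 0.0012). The calls with HDM and over both challenges were kept with each library left out.

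Cplx2 (chromosome 13, 54371349 to 54383917), the complexin reported in mast cells, which clamps and promotes SNARE fusion, was low throughout. It stood at 1.51 and 0.52 CPM in B7hi saline and 0.62, 5.87 and 1.37 CPM in B7hi HDM, against 6.99 and 21.7 CPM in B7low saline and 10.8, 5.85 and 5.69 CPM in B7low HDM. B7hi HDM 2 reached the lower B7low HDM libraries. With saline there were 3 counts in B7hi and 17 in B7low, a ratio of 15.7 (95% counting interval 4.54 to 83.5). That interval holds counting error of the pooled libraries and not the spread between them. In edgeR the saline difference did not pass (−3.76 ± 1.35, adjusted p = 0.11). Over both challenges the log2 fold change was −2.76 ± 0.86 (edgeR adjusted p = 0.046), which held only without B7hi HDM 2 or B7low saline 1 (up to 0.18 without the others, while B7low HDM 1 left it untested). It was also lost with library size alone and with B7low saline 2 and B7hi HDM 2 both left out. The calcium sensor synaptotagmins Syt2, Syt3 and Syt9, at 17, 7 and 11 counts over all libraries, did not pass the filter. Syt11, which does not bind calcium, was at 2.50 to 26.8 CPM (−0.82, adjusted p = 0.35).

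**Figure D3:**
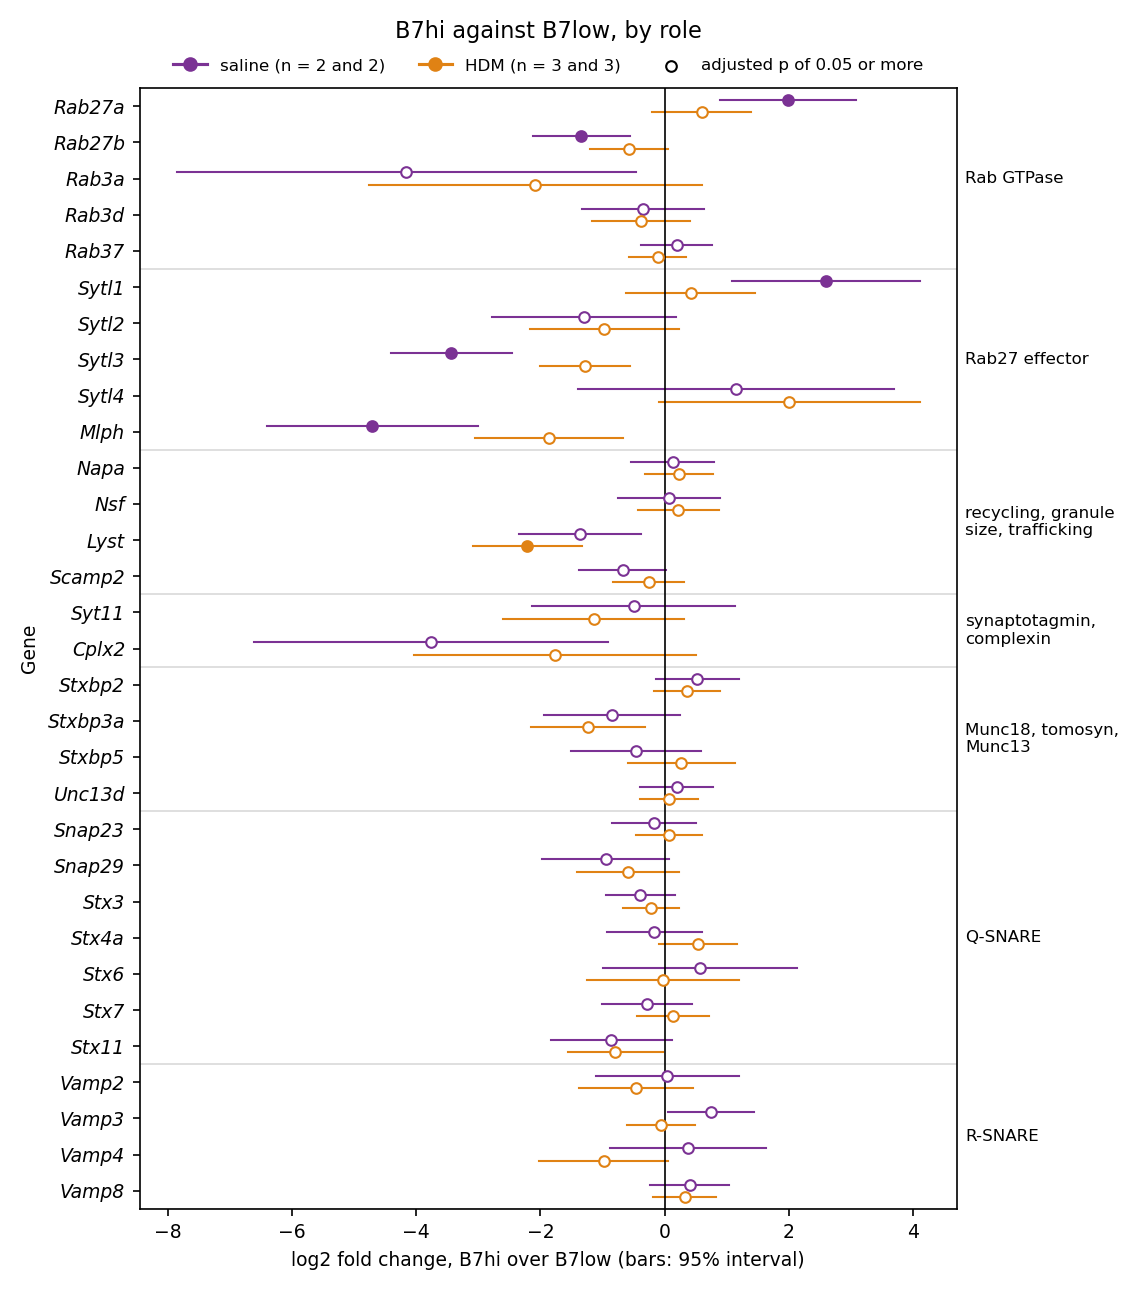
Log2 fold change of B7hi over B7low for the 31 tested members by role, with saline (n = 2 and 2) and with HDM (n = 3 and 3). Filled points passed an adjusted p of 0.05 in edgeR, open points did not, and bars are 95% intervals. Filled points fall on Rab27a, Rab27b, Sytl1, Sytl3 and Mlph with saline and on Lyst with HDM.

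With saline alone, 5 of the 31 members were called (16.1%, against 6.54% of all genes), 2 higher and 3 lower in B7hi (2.91% and 3.64% of all genes), which were the Rab27 paralogs with Sytl1, Sytl3 and Mlph. Leaving out B7hi saline 1 left 1 call, Sytl3, while there were 3 calls without B7hi saline 2 and 2 without B7low saline 1. Rn45s, the ribosomal RNA precursor, was at 181668 and 194350 CPM in B7hi saline and at 310900 and 309178 CPM in B7low saline, and its part in these results was not tested. With HDM, 1 of 31 was called (3.23%, against 2.84% of all genes). That share was near the background.

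The SNAREs at which granules fuse showed no called difference between populations. Stx3, a syntaxin of granule fusion, was the most abundant per kilobase of the SNAREs. It stood at 225 and 214 CPM in B7hi saline, 309 and 266 CPM in B7low saline, 210, 223 and 180 CPM in B7hi HDM and 230, 209 and 274 CPM in B7low HDM, and its log2 fold change over both challenges was −0.31 (95% interval −0.67 to 0.05, edgeR adjusted p = 0.27). Syntaxin 4, Stx4a, the plasma membrane syntaxin of mast cells, ranged from 36.0 to 84.2 CPM (0.19, −0.31 to 0.68). Snap23, its partner at the plasma membrane, ranged from 76.2 to 131 CPM (−0.05, −0.48 to 0.38). Differences beyond 1 on the log2 scale lie outside all 3 intervals. Rab37, Snap29 and Vamp3 overlap Cd300lf, Pi4ka and Camta1, so their counts may hold reads of those genes.

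Among the vesicle SNAREs, Vamp8, the chief R-SNARE of mast cell secretion, lay at 82.2 to 106 CPM in B7hi and 61.9 to 80.9 CPM in B7low. These ranges did not overlap, and the difference was small, with a log2 fold change of 0.36 (95% interval −0.05 to 0.77, edgeR adjusted p = 0.26). Vamp3, or cellubrevin, an R-SNARE of recycling endosomes, was at 141 and 135 CPM in B7hi saline, 78.7 and 85.3 CPM in B7low saline, 138, 84.2 and 96.6 CPM in B7hi HDM and 82.7, 118 and 133 CPM in B7low HDM. The saline groups lay apart and the HDM groups overlapped (0.75 with saline, adjusted p = 0.19, and −0.06 with HDM, 0.95). Vamp2 and Vamp4 ranged from 13.0 to 39.8 and from 8.22 to 21.7 CPM. Vamp7 was listed at 0 in all 10 libraries. GENCODE M21 has no gene model of that name on its chromosomes, so this 0 may come from the counting and is not read as a level.

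The endosomal and other syntaxins were also uncalled. Stx7, of late endosomes, stood at 104 and 89.3 CPM in B7hi saline, 135 and 100.3 CPM in B7low saline, 118, 135 and 83.6 CPM in B7hi HDM and 86.7, 135 and 80.9 CPM in B7low HDM, with no order between groups (−0.07, −0.54 to 0.39). Stx11, the syntaxin of cytotoxic granules, was at 17.6 to 35.6 CPM in B7hi and 31.8 to 62.3 CPM in B7low (−0.83, −1.45 to −0.20, edgeR adjusted p = 0.081). Snap29, a SNAP protein without a membrane anchor, was at 17.6 to 32.9 and 26.7 to 67.8 CPM (−0.77, −1.43 to −0.11, adjusted p = 0.12). Stx6, of the trans-Golgi network, ranged from 3.50 to 45.9 CPM.

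**Figure D4:**
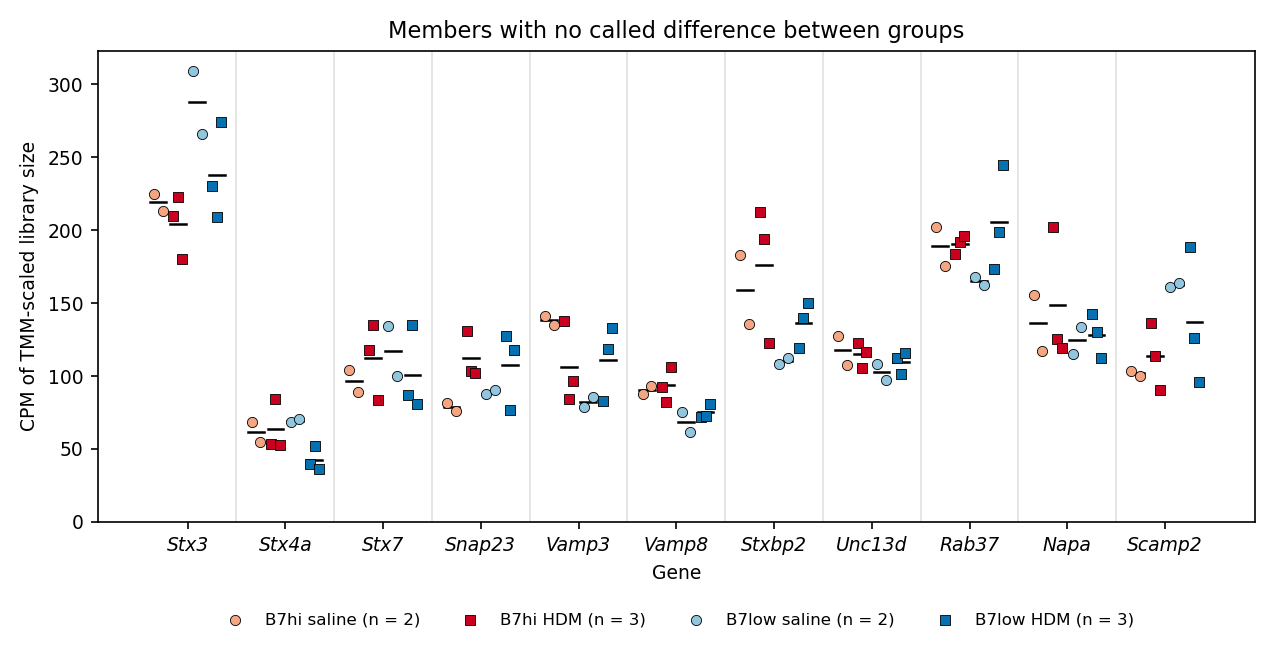
CPM of the TMM-scaled library size (linear axis from 0) in each library for 11 members without a called difference, with 1 point per library and a bar at the group mean. They are the 8 uncalled members that averaged at least 100 CPM, with Stx4a, Snap23 and Vamp8 added for their known part in mast cell fusion, and the populations overlap in all of them but Vamp8.

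Of the priming proteins, Stxbp2, or Munc18-2, stood at 183 and 136 CPM in B7hi saline, 108 and 112 CPM in B7low saline, 213, 194 and 123 CPM in B7hi HDM and 119, 140 and 150 CPM in B7low HDM. Its log2 fold change over both challenges was 0.44 (95% interval 0.02 to 0.87, edgeR adjusted p = 0.17). Unc13d, or Munc13-4, the Rab27 effector that primes granules, varied least of the 10 members that averaged at least 100 CPM, with a coefficient of variation of 8.44% over the 10 libraries. It stood at 128 and 108 CPM in B7hi saline, 108 and 97.0 CPM in B7low saline, 123, 106 and 116 CPM in B7hi HDM and 112, 101 and 116 CPM in B7low HDM (0.13, −0.25 to 0.51). Stxbp3a, or Munc18c, the partner of syntaxin 4, lay at 9.79 to 16.2 CPM in B7hi and 18.9 to 36.8 CPM in B7low, which did not overlap, and missed the threshold over both challenges (−1.04, −1.76 to −0.32, adjusted p = 0.058). It passed with DESeq2 (0.046) and with DESeq2 size factors in edgeR (0.049). Stxbp5, or tomosyn, an inhibitor of SNARE assembly, ranged from 23.1 to 64.6 CPM (−0.09, −0.77 to 0.58).

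Of the other Rab GTPases, Rab37, which associates with mast cell granules, was at 203 and 175 CPM in B7hi saline, 168 and 162 CPM in B7low saline, 184, 192 and 196 CPM in B7hi HDM and 173, 199 and 245 CPM in B7low HDM (0.04, −0.32 to 0.40). Rab3d, a granule Rab, was at 25.002 to 32.9 CPM in B7hi and 26.02 to 57.5 CPM in B7low, with 3 of the 5 B7low libraries within the B7hi range (−0.37, −0.99 to 0.26). Rab3a, its neuronal relative, had 1 count in B7hi saline and 9 in B7low saline, a ratio of 24.9 (95% counting interval 3.45 to 1092). That interval is of pooled counts and leaves out the spread between libraries. Rab3a missed the threshold with saline (edgeR adjusted p = 0.18) and over both challenges (0.073), where it passed with DESeq2 (0.026). It overlaps Mpv17l2 on the opposite strand. Rab12, at 52 counts in all, was not tested.

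For SNARE recycling, Napa, or α-SNAP, stood at 156 and 117 CPM in B7hi saline, 115 and 134 CPM in B7low saline, 203, 125 and 119 CPM in B7hi HDM and 142, 130 and 112 CPM in B7low HDM (0.18, −0.25 to 0.61). Nsf, the ATPase it recruits, was at 35.2 to 55.9 CPM (0.15, −0.38 to 0.67). Scamp2, a membrane protein of secretory carriers, was at 104 and 100.2 CPM in B7hi saline and 161 and 164 CPM in B7low saline, and at 136, 114 and 90.4 CPM in B7hi HDM and 188, 126 and 96.0 CPM in B7low HDM. The saline groups lay apart and the HDM groups overlapped, and over both challenges Scamp2 did not pass (−0.46, −0.92 to −0.01, edgeR adjusted p = 0.18).

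The comparisons of HDM with saline ask what allergen challenge did within each population. No member was called. In B7hi, 0 of 31 passed in edgeR (against 0.00949% of all genes), with 3 at an unadjusted p under 0.05 (9.68%, against 4.13% of all genes), while 1 passed in DESeq2 and 0 in limma-voom. Sytl3 had the largest difference by its p, 1.74 ± 0.42 on the log2 scale (edgeR adjusted p = 0.25, DESeq2 adjusted p = 0.011), and all 3 B7hi HDM libraries lay above both B7hi saline libraries. Mlph, also with separate ranges, was at 2.21 ± 0.74 (edgeR adjusted p = 0.89) and Lyst at −1.09 ± 0.45 (0.999). How many of all genes had such separate ranges between these small groups was not counted. In B7low, 0 of 31 passed in edgeR (against 0.00949%), with 1 at an unadjusted p under 0.05 (3.23%, against 9.08% of all genes), which was Sytl1 (1.60 ± 0.69, adjusted p = 0.51), and 0 in DESeq2 and limma-voom.

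Whether the HDM effect differed between populations was tested as an interaction, in which 0 of 31 members and 0% of all genes passed in edgeR. Of the members, 4 had an unadjusted p under 0.05 (12.9%, against 8.55% of all genes), 1 passed in DESeq2 (Sytl3, adjusted p = 0.040) and 0 in limma-voom. The 4 were Sytl3 (2.15 ± 0.55, edgeR adjusted p = 0.24), Mlph (2.84 ± 0.93, 0.46), Sytl1 (−2.18 ± 0.86, 0.52) and Rab27a (−1.39 ± 0.64, 0.57). The B7hi minus B7low difference of each was nearer to 0 with HDM than with saline, and this change did not pass the threshold in edgeR.

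Other genes of granule transport and secretion were read from lists of 176 symbols in the table. Of 26 tested genes of granule motors and cortical actin, 4 were higher and 2 lower in B7hi over both challenges (11.9% of all genes were called). Myo5a, the myosin Va motor that Mlph binds, was lower, at 39.8 ± 4.6 and 35.6 ± 4.3 CPM in B7hi saline and HDM against 96.1 ± 24.8 and 75.3 ± 29.1 CPM in B7low (SD). Its log2 fold change was −1.17 ± 0.25 (SE, edgeR adjusted p = 0.0057), kept with each library left out. The actin regulator Coro1a (1.18 ± 0.20), the nonmuscle myosin Myh9 (1.25 ± 0.24) and the membrane myosin Myo1g (0.78) were higher. Coro1a, Myh9 and Myo1g too kept their calls with each library left out.

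Of 26 tested other Rabs and their regulators, 4 were higher and 1 lower in B7hi over both challenges, against 5.8% and 6.08% of all genes. Rab32 and Rab38, paralogs that sort cargo to lysosome-related organelles, went opposite ways. Rab38 was at 197 ± 54.3 and 189 ± 92.7 CPM in B7hi saline and HDM and 39.5 ± 8.5 and 73.2 ± 42.9 CPM in B7low (1.83 ± 0.37, edgeR adjusted p = 0.0062). Rab32 was at 42.6 ± 2.5 and 69.2 ± 28.7 CPM in B7hi and 123 ± 31.7 and 132 ± 45.6 CPM in B7low (−1.22 ± 0.27, adjusted p = 0.0066). The Rab38 call was lost without B7low saline 1 or B7low saline 2, at up to 0.061. The exocytic Rab8a (0.65) and Tbc1d10c (0.88), a Rab-GAP family member, were also higher, which missed the threshold without any saline library or B7hi HDM 3 or with B7low saline 2 and B7hi HDM 2 left out together (Rab8a, up to 0.096) and without B7hi saline 1, B7low saline 1 or B7hi HDM 2 (Tbc1d10c, up to 0.081).

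Of 31 tested genes of lysosome-related organelle biogenesis, 0 were higher and 5 lower in B7hi over both challenges, against 5.8% and 6.08% of all genes. They included Vps39 (−1.35 ± 0.19, edgeR adjusted p = 1.6e-04), a tether of late endosomes and lysosomes, the BLOC-1 subunit Bloc1s5 (−1.20), the heparin sulfotransferase Ndst2 (−1.38) and the BEACH protein Wdfy3 (−1.04), a relative of Lyst. Bloc1s5 missed the threshold without B7hi saline 1, B7hi saline 2, B7low saline 1 or B7low HDM 1 (up to 0.11), and Wdfy3 without B7hi saline 2 or B7low saline 1 (up to 0.077). With HDM alone 2 of the 31 were lower (2.15% of all genes), Vps39 (−1.11 ± 0.24, edgeR adjusted p = 0.018) and Ndst2 (−1.01 ± 0.23, 0.025). Both HDM calls were lost without B7hi HDM 2 or B7hi HDM 3, that of Vps39 without B7low HDM 1 and that of Ndst2 without B7low HDM 3 (up to 0.097 and 0.13), and both with B7low saline 2 and B7hi HDM 2 left out together. In the comparison over both challenges, 1 of 20 other SNAREs and 1 of 21 other SNARE regulators were called, against 11.9% of all genes. The SNARE was Snap47 (1.08), kept only without B7hi saline 2, B7low saline 2 or B7low HDM 2. Its log2 fold change was 0.74 with B7low saline 1 left out and 1.82 with B7low saline 2 left out. The regulator was Scamp1 (−0.65), lost without any saline library or B7low HDM 1, and with library size alone or no count filter. The Scamp1 call was also lost with B7low saline 2 and B7hi HDM 2 left out together. Of 10 exocyst genes, which tether vesicles at the plasma membrane, 2 were higher in B7hi with saline (6.54% of all genes were called), namely Exoc2 (1.43 ± 0.35, edgeR adjusted p = 0.023) and Exoc6 (1.44 ± 0.42, 0.049). Exoc2 was lost without B7hi saline 1, B7hi saline 2 or B7low saline 2 (up to 0.16), and Exoc6 was kept only without B7low saline 1 (up to 0.26 without the others). Both were lost with limma-voom, with only the saline groups, and with B7low saline 2 and B7hi HDM 2 left out together. Over both challenges 0 of the 10 were called in edgeR, against 11.9% of all genes. An unadjusted p under 0.05 was found for 2 of the 10, against 25.7% of all genes. With HDM against saline and in the interaction, no gene of these lists was called in edgeR.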

How the data were processed

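RNA from flow-sorted mast cells was made into SmartSeq2 libraries from poly(A)+ mRNA and sequenced as paired reads of 25 nt, per the labels' protocols. The deposited file holds the authors' unnormalized counts for 22815 gene symbols in 10 libraries. Per the submitters' processing notes, the build was mm10 and the tools included Cufflinks 2.2.1, TopHat2 2.0.10 and DESeq2, with no roles stated. How reads were counted, on which annotation and with what strand setting is not given in the sources used here, so antisense and overlapping genes cannot be told apart, and short reads shared by copies may be split. Groups were read from sample titles.

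A robust quasi-likelihood model was fitted in R 4.3.3 with edgeR 4.0.16 and TMM scaling, with 1 mean per group over all 10 libraries, after filterByExpr, which kept 10533 genes. There were 6 two-sided contrasts, with Benjamini-Hochberg adjustment over all genes tested and a threshold of 0.05. Each SE was taken from the F statistic, and 95% intervals use it with the fit's degrees of freedom. Adjusted p-values in the text are edgeR's unless another tool is named. Levels are CPM of the TMM-scaled library size. Exon lengths and coordinates come from GENCODE M21 (GRCm38, which is mm10), which held 36 of 37 members. The model was tested on simulated data.

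Every member is accounted for. Values in each library are given for members called in any contrast or averaging at least 100 CPM, and up to 4 called genes per other list are named. The members and lists were chosen with earlier results of these data known. Alternatives were DESeq2 1.42.0 size factors, library size alone, DESeq2, limma-voom with quality weights (limma 3.58.1), no count filter, at least 5 CPM in 2 libraries, each library left out, 2 libraries left out together, only the 2 groups compared and a replicate block.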

Additional observations from a re-analysis of the deposited data

How the results depend on the processing

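The count of members called over both challenges was 7 in the fit described and 4 to 6 with a library left out, lowest without B7hi saline 1 or B7hi saline 2, and the other settings gave 5 to 9. With saline it was 5, and 1 to 5 with a library left out, 3 with limma-voom, 3 with only the saline groups in the fit and 3 without both B7low saline 2 and B7hi HDM 2. With HDM it was 1, and 1 to 3 with a library left out, 3 with DESeq2, limma-voom or no count filter, and 2 with DESeq2 size factors or library size alone. For HDM against saline in B7hi and for the interaction it was 0, and 1 with DESeq2 and 2 with no count filter. The cause was not tested. The calls of members, and of up to 4 called genes per other list and contrast, were followed through the settings. None of their log2 fold changes changed sign under any setting run. Library size alone moved the median log2 fold change of all genes from 0.03 to 0.30 with saline. Same-numbered B7hi and B7low libraries did not deviate together (correlations of −0.11 to 0.04 over genes). With groups of 2 or 3 libraries this check cannot exclude that they came from the same animals. With the replicate block, 4 members were called with saline, 3 with HDM and 6 over both challenges. Of the calls named in the text it ended that of Rab27a with saline (adjusted p = 0.060) and those of Cplx2 (0.11) and Rab8a (0.055) over both challenges. Leaving out B7low HDM 1 dropped Cplx2 below the filter. Depth limits the synaptotagmins, Myrip, Rab12 and Rab3a, and groups of 2 or 3 libraries were too small for an outlier test.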
